A study of Mus musculus with 6 samples.

Results

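The 10 genes described here are mouse immediate early genes: Fos, Fosb, Jun, Junb, Atf3, Egr1, Egr2, Egr3, Myc and Ier3. They were taken by symbol from the 40993 genes of the deposited kidney table, and each symbol was found there 1 time. Whole kidneys of C57BL/6 mice aged 2 months were compared between 3 samples from mice on an adenine-enriched diet and 3 from mice on a standard diet, all of the same strain, tissue and age. No transgene or other treatment is named in the labels, and the adenine dose, the feeding time and the sex are not given there. Adenine-enriched chow is a common way to bring about tubulointerstitial kidney disease in rodents, because a product of adenine crystallises in the tubules.

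Immediate early genes are transcribed within minutes of a growth factor, cytokine or stress signal, through transcription factors that are already in the cell. Serum response factor bound at CArG boxes and CREB-family proteins bound at cyclic AMP response elements are the classical switches at their promoters. The products are mostly short-lived DNA-binding proteins that then act on a later wave of genes: Fos and Jun proteins dimerise as AP-1, EGR proteins are zinc fingers that bind GC-rich sites, and Myc acts with Max at E-boxes. Ier3 is the exception in the group, since it encodes a small protein linked to cell survival and not a DNA-binding factor. In kidney these genes are known for their response to ischaemic and toxic injury, and also to the handling of tissue after death.

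Promoters of the genes carry some of these switches, and 4 are shown because they hold, between them, a CArG box, cyclic AMP response element matches and an AP-1 type octamer, each in a gene called higher on adenine. Sequences are from RefSeq on GRCm38.p6 and cover 7 of the 10 genes. Egr1 was left out of the search, and no entry was found for Egr3 and Myc. Each is the 250 bases before a transcription start, written 5′ to 3′ on the strand of the gene, with motif matches in capitals. They are chr12:85473640-85473889 (plus strand) for Fos, chr4:95052223-95052472 (minus strand) for Jun, chr1:191183334-191183583 (minus strand) for Atf3, and chr10:67537619-67537868 (plus strand) for the third of 5 annotated Egr2 starts.
Fos: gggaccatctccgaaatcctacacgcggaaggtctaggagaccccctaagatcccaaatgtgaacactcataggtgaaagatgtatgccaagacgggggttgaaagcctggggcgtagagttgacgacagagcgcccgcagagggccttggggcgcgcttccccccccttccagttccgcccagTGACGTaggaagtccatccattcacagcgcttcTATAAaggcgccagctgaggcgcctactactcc
Jun: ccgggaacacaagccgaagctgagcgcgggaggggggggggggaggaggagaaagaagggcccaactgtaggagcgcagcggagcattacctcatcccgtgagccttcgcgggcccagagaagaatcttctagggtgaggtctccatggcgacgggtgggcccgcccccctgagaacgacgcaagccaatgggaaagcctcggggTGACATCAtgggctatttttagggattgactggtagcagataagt
Atf3: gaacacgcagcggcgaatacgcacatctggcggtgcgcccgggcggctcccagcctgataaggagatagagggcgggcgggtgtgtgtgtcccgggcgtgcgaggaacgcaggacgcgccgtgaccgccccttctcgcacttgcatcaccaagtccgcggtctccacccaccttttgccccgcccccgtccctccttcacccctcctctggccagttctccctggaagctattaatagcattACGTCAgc
Egr2: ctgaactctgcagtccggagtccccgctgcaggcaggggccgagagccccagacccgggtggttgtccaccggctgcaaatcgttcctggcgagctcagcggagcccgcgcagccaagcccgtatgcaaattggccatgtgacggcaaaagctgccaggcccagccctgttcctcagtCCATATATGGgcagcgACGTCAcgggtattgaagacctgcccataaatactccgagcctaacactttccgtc
In Fos the capitals mark TGACGT, the core of the cyclic AMP response element, 66 to 61 bases before the start, and a TATAA box 33 to 29 bases before it. In Jun they mark TGACNTCA, the octamer read by Jun and ATF dimers, 45 to 38 bases before the start. In Atf3 they mark TGACGT on the opposite strand, 8 to 3 bases before the start. In Egr2 they mark a CArG box 72 to 63 bases and TGACGT on the opposite strand 56 to 51 bases before that start.

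The search covered 7 motifs on both strands, except TATAA on the sense strand only. Over 32851 mouse promoter windows of the same length, TGACGT was in 6.47%, TGACNTCA in 7.49%, the AP-1 heptamer TGANTCA in 6.75%, the EGR site GCGNGGGCG in 4.70%, the E-box CACGTG in 6.02%, the CArG box in 1.47% and TATAA in 16.0%. TGACGT and TGACNTCA overlap where a sequence holds the full element. Of the 7 genes searched, TGACGT was matched in 3 (Fos, Atf3 and Egr2), TATAA in 3 (Fos, Ier3 and another Egr2 start), and the CArG box in 1 (Egr2). TGACNTCA was matched in Jun, GCGNGGGCG in Fosb and CACGTG in the first Egr2 start; TGANTCA was matched in none, and Junb held none of the 7. The genes were counted over 11 windows, 5 of them of Egr2, whereas the shares are per window, so counts and shares are unlike measures. The matches are of letters only and say nothing of what was bound.

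The values are FPKM, fragments scaled to transcript length and library size, as the authors deposited them, and levels of different genes are compared on this scale only. Differences between the diets were tested with limma on log2(FPKM + 1) for the 15431 genes that averaged 0.5 FPKM or more across the 6 libraries, with Benjamini-Hochberg adjustment over all of them; a gene was called at an adjusted p under 0.05. In this comparison 29.7% of tested genes were called higher on adenine and 6.84% lower, so a call by itself sets no gene apart. The median log2 change of all tested genes was 0.25. After median-of-ratios scaling of the libraries it was -0.004 and the shares were 16.8% higher and 15.2% lower, so the change of each of the 10 genes that was tested is also given on that scale, and gene lists are given as counts on both. Library depth, estimated from the steps of low values, was about 17300000 to 23500000 fragments. Standard 3 stood apart in heat shock genes, being the highest of the 6 libraries in 11 of 11, and the changes without it are given further on. Whether each sample of a diet is its own animal is not in the labels, and the p-values then cover only sample-to-sample spread, which may be technical.

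**Figure D1:**
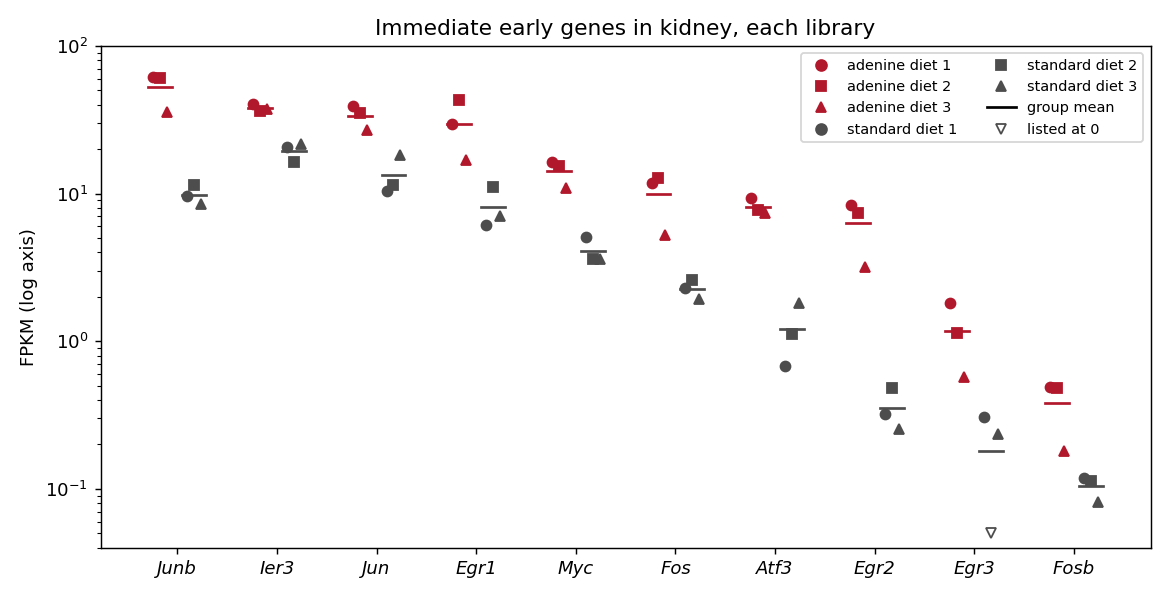
FPKM of the 10 immediate early genes on a log axis, with 1 point for each library, adenine-enriched diet in red on the left and standard diet in grey on the right of each gene, and lines at the group means. In each of the 10 genes the 3 adenine libraries lie above the 3 standard libraries; the open triangle marks Egr3 in standard 2, listed at 0.

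All 10 genes had their 3 adenine libraries above their 3 standard libraries, a pattern found in 44.4% of all tested genes. Of the 10, 9 passed the filter and all 9 were called higher on adenine, with a median log2 change of 1.66, or 1.42 after median-of-ratios scaling. Egr2 and Egr3 passed the filter through the adenine libraries alone, their standard means being under 0.5 FPKM, so the 9 are not the whole group. Fosb did not pass. With no filter, 22768 genes were tested and 18.2% were called higher on adenine; 9 of the 10 genes were among them, Fosb not. In whole kidney, more cells of a type that express a gene and more RNA of that gene per cell cannot be told apart.

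Fos and Fosb encode AP-1 subunits that bind DNA mainly as partners of a Jun protein. Fos (ENSMUSG00000021250, chromosome 12, 85473890 to 85477273, plus strand, positions on mm10 as deposited) had 11.8, 12.7 and 5.20 FPKM in adenine libraries 1 to 3, against 2.29, 2.61 and 1.92 FPKM in standard libraries 1 to 3. Adenine 3 was the lowest of the adenine libraries and lay above every standard library. The means were 9.89 ± 4.08 FPKM on adenine and 2.27 ± 0.342 FPKM on standard diet (SD, n = 3 each), a ratio of 4.35. The log2 change was 1.66 (SE 0.31, 95% interval 0.91 to 2.40, limma adjusted p = 0.0116), and 1.42 after median-of-ratios scaling (adjusted p = 0.0146).

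Fosb (ENSMUSG00000003545, chromosome 7, 19302721 to 19310045, minus strand) was the least abundant of the 10. It had 0.487, 0.480 and 0.182 FPKM in adenine libraries 1 to 3, against 0.118, 0.113 and 0.0816 FPKM in standard libraries 1 to 3. These values stand for about 42, 43 and 12 fragments in the adenine libraries and about 9, 7 and 5 in the standard libraries. The groups did not overlap, and the means of 0.383 ± 0.174 FPKM on adenine and 0.104 ± 0.0198 FPKM on standard diet (SD, n = 3 each) gave a ratio of 3.67. With no filter its log2 change was 0.32 on the log2(FPKM + 1) scale, which understates changes of low genes, and it was not called (limma adjusted p = 0.0665).

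Jun and Junb encode the DNA-binding partners; JUN is the stronger activator, and JUNB often moderates it. Jun (ENSMUSG00000052684, chromosome 4, 95049034 to 95052222, minus strand) had 39.1, 35.1 and 26.8 FPKM in adenine libraries 1 to 3, against 10.3, 11.4 and 18.3 FPKM in standard libraries 1 to 3. Standard 3 was the highest of the standard libraries, and the lowest adenine library was 1.46 times it. The means were 33.7 ± 6.28 FPKM on adenine and 13.4 ± 4.33 FPKM on standard diet (SD, n = 3 each), a ratio of 2.52. On the log2 scale this was a change of 1.30 (SE 0.23, limma adjusted p = 0.0105), and 1.01 after median-of-ratios scaling (adjusted p = 0.0244). Junos, an antisense gene that overlaps Jun, averaged 2.36 FPKM on adenine and 0.934 FPKM on standard diet; no source used here says whether counting used the strand, so reads of the pair may be mixed.

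Junb (ENSMUSG00000052837, chromosome 8, 84976909 to 84978748, minus strand) had 61.9, 60.4 and 35.8 FPKM in adenine libraries 1 to 3, against 9.59, 11.4 and 8.50 FPKM in standard libraries 1 to 3. It was the most abundant of the 10 genes on adenine and ranked after Ier3 and Jun on standard diet. The means were 52.7 ± 14.7 FPKM on adenine and 9.83 ± 1.46 FPKM on standard diet (SD, n = 3 each), a ratio of 5.36. Junb thus differed by 2.28 on the log2 scale (SE 0.23, limma adjusted p = 0.00375), and 1.99 after median-of-ratios scaling (adjusted p = 0.00358). Junb over Jun was 1.34 to 1.72 within the adenine libraries and 0.464 to 1.00 within the standard libraries. The ranges did not overlap, and the exact permutation test gave p = 0.1, the smallest that 3 against 3 allow (0.167 adjusted over the 5 ratios compared, two-sided). Fos over Jun overlapped, at 0.194 to 0.360 on adenine and 0.105 to 0.229 on standard diet (exact permutation p = 0.3, adjusted 0.375).

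ATF3 is a stress-induced bZIP protein that can pair with Jun proteins and often acts as a repressor. Atf3 (ENSMUSG00000026628, chromosome 1, 191170296 to 191183340, minus strand) had 9.31, 7.80 and 7.40 FPKM in adenine libraries 1 to 3, against 0.680, 1.12 and 1.81 FPKM in standard libraries 1 to 3. The adenine libraries lay close together, and the spread was in the standard libraries, with standard 3 the highest. The means were 8.17 ± 1.01 FPKM on adenine and 1.20 ± 0.568 FPKM on standard diet (SD, n = 3 each), a ratio of 6.79. The log2 change was 2.08 (SE 0.21, limma adjusted p = 0.00395), and 1.87 after median-of-ratios scaling (adjusted p = 0.0049). The lowest adenine library was 4.10 times the highest standard library, a gap passed only by Egr2 among the 10.

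The EGR factors are zinc fingers: EGR1 is the broadly expressed one, EGR2 is known from myelin and macrophages, and EGR3 from lymphocytes and muscle spindles. Egr1 (ENSMUSG00000038418, chromosome 18, 34859823 to 34864984, plus strand) had 29.4, 43.2 and 16.8 FPKM in adenine libraries 1 to 3, against 6.13, 11 and 7.06 FPKM in standard libraries 1 to 3. It was uneven in both groups, with library 2 of each diet the highest. The means were 29.8 ± 13.2 FPKM on adenine and 8.07 ± 2.61 FPKM on standard diet (SD, n = 3 each), a ratio of 3.69. On the log2 scale Egr1 changed by 1.70 (SE 0.36, limma adjusted p = 0.0151), and 1.43 after median-of-ratios scaling (adjusted p = 0.0233). The call was lost without standard 1 (adjusted p = 0.0528) and without standard 3 (adjusted p = 0.0531).

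Egr2 (ENSMUSG00000037868, chromosome 10, 67535475 to 67542188, plus strand) had 8.41, 7.36 and 3.21 FPKM in adenine libraries 1 to 3, against 0.324, 0.479 and 0.255 FPKM in standard libraries 1 to 3. Every adenine library was at least 6.69 times every standard library. The means were 6.33 ± 2.75 FPKM on adenine and 0.353 ± 0.115 FPKM on standard diet (SD, n = 3 each), a ratio of 17.9. The log2 change was 2.36 (SE 0.31, limma adjusted p = 0.00556), and 2.19 after median-of-ratios scaling (adjusted p = 0.00584). Of the tested genes, 1.48% had a larger log2 change. Since the standard level was low, a pseudocount of 0.1 in place of 1 gave a log2 change of 3.75.

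Within libraries, Egr2 over Egr1 was 0.170 to 0.286 on adenine and 0.0361 to 0.0528 on standard diet, with no overlap (exact permutation p = 0.1, the smallest possible; adjusted 0.167). Egr1 over Fos overlapped, at 2.49 to 3.42 on adenine and 2.68 to 4.23 on standard diet (exact permutation p = 0.4, adjusted 0.4). Fosb over Fos was 0.0350 to 0.0413 on adenine and 0.0424 to 0.0517 on standard diet, again without overlap (exact permutation p = 0.1, adjusted 0.167), though Fosb rests on few fragments.

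Egr3 (ENSMUSG00000033730, chromosome 14, 70077445 to 70080157, plus strand) had 1.82, 1.14 and 0.576 FPKM in adenine libraries 1 to 3, against 0.306, 0 and 0.234 FPKM in standard libraries 1 to 3. Standard 2 is listed at 0, and the lowest adenine library was 1.89 times the highest standard library. The means were 1.18 ± 0.623 FPKM on adenine and 0.180 ± 0.160 FPKM on standard diet (SD, n = 3 each). Its log2 change was 0.85 (SE 0.24, limma adjusted p = 0.0366), and 0.75 after median-of-ratios scaling (adjusted p = 0.0471). It is the least firm of the 9 calls: it was lost without adenine 2 (adjusted p = 0.103), standard 1 (0.0723), standard 2 (0.107) or standard 3 (0.0862), and after quantile normalization (0.13), and without adenine 1 the gene fell under the filter.

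MYC drives growth and cell cycle entry. Myc (ENSMUSG00000022346, chromosome 15, 61985341 to 61990374, plus strand) had 16.3, 15.3 and 10.9 FPKM in adenine libraries 1 to 3, against 5.09, 3.58 and 3.59 FPKM in standard libraries 1 to 3. The lowest adenine library was 2.14 times the highest standard library. The means were 14.2 ± 2.86 FPKM on adenine and 4.09 ± 0.867 FPKM on standard diet (SD, n = 3 each), a ratio of 3.46. The log2 change was 1.57 (SE 0.19, limma adjusted p = 0.00489), and 1.31 after median-of-ratios scaling (adjusted p = 0.00591).

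Ier3 (ENSMUSG00000003541, chromosome 17, 35821684 to 35822923, plus strand) had 40.6, 36.2 and 37.3 FPKM in adenine libraries 1 to 3, against 20.8, 16.3 and 21.5 FPKM in standard libraries 1 to 3. It had the highest level of the 10 on standard diet and a ratio of means of 1.95, the smallest of the 9 genes given one. The means were 38.1 ± 2.28 FPKM on adenine and 19.5 ± 2.84 FPKM on standard diet (SD, n = 3 each). Its log2 change was 0.93 (SE 0.12, limma adjusted p = 0.00555), and 0.64 after median-of-ratios scaling (adjusted p = 0.0191).

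**Figure D2:**
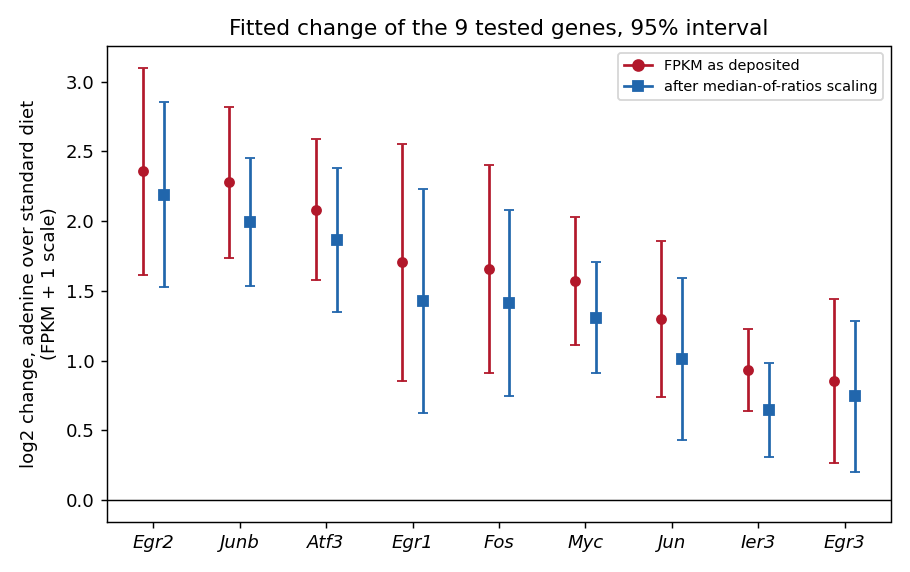
Fitted log2 change, adenine-enriched over standard diet, on the FPKM + 1 scale for the 9 tested genes, with 95% intervals from limma, in red for FPKM as deposited and in blue after median-of-ratios scaling. The intervals of all 9 genes lie, on both scales, above 0; Egr2 has the highest value on both scales, 2.36 as deposited and 2.19 after scaling, and the lowest is Egr3 at 0.85 as deposited and Ier3 at 0.64 after scaling.

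By mean FPKM the order on adenine was Junb, Ier3, Jun, Egr1, Myc, Fos, Atf3, Egr2, Egr3 and Fosb. Neighbours in that order had overlapping ranges except Egr1 and Myc, Egr2 and Egr3, and Egr3 and Fosb. On standard diet the order was Ier3, Jun, Junb, Egr1, Myc, Fos, Atf3, Egr2, Egr3 and Fosb. There the ranges of Egr1, Myc, Fos and Atf3 were each separate from the next gene, and the other neighbours overlapped. The 10 genes summed to 219.1, 219.8 and 144.1 FPKM in adenine libraries 1 to 3, against 55.7, 58.0 and 63.3 FPKM in standard libraries 1 to 3. Junb made up 24.8% to 28.2% of that sum on adenine and 13.4% to 19.6% on standard diet, whereas Ier3 made up 16.5% to 25.9% on adenine and 28.1% to 37.4% on standard diet.

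Adenine 3 was the lowest of the adenine libraries in 9 of the 10 genes, Ier3 being the exception with adenine 2 lowest. It was also the lowest in 82.3% of all genes called higher on adenine, so the order is shared with most of the response. The median of the 10 genes over their own standard mean was 4.93, 5.46 and 2.48 in adenine libraries 1 to 3, against 2.25, 1.92 and 1.63 for all genes called higher. For example, Fos was at 5.19, 5.57 and 2.29 times its standard mean, whereas Atf3 varied less, at 7.74, 6.48 and 6.15 times.

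**Figure D3:**
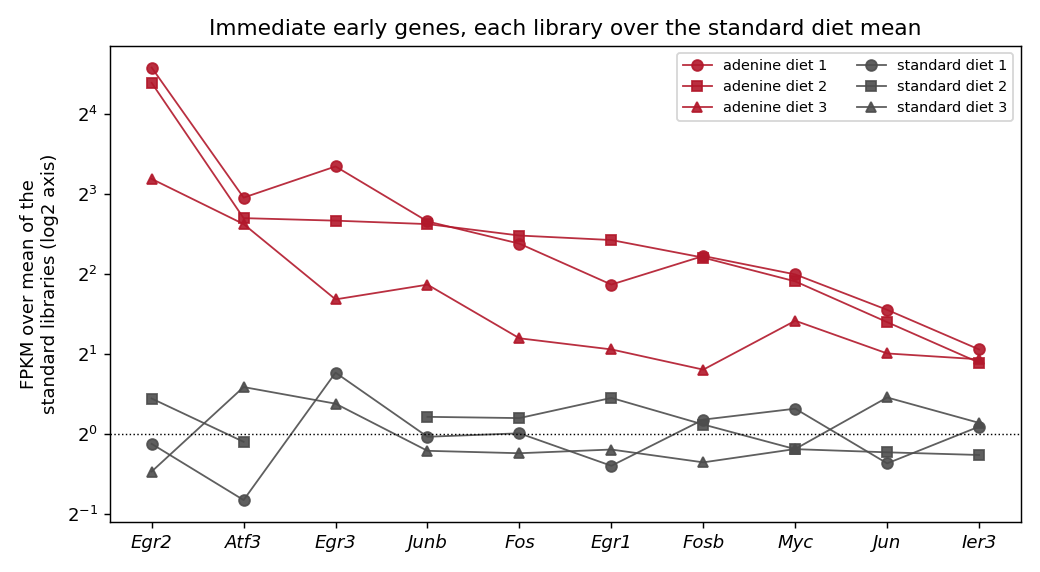
Each library's FPKM over the mean of the 3 standard libraries, on a log2 axis, for the 10 genes, adenine libraries in red and standard libraries in grey; Egr3 in standard 2, listed at 0, has no point. Adenine 3 (triangles) is the lowest red point in every gene but Ier3, and the red points range from 1.75 times the standard mean for Fosb in adenine 3 to 23.8 times for Egr2 in adenine 1.

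Of 53 other immediate early genes, 52 were tested, and 39 were called higher and 2 lower on adenine, with a median log2 change of 0.91. After median-of-ratios scaling 30 were higher and 5 lower, with a median of 0.64. The higher calls were 75% as deposited and 57.7% after scaling. For this and every list below, the shares of all tested genes were 29.7% higher and 6.84% lower as deposited. After scaling they were 16.8% and 15.2%. Socs3, the feedback inhibitor of cytokine receptors, had the largest rise: 38.1, 29.3 and 18.1 FPKM in adenine libraries 1 to 3, against 1.21, 1.15 and 1.07 FPKM in standard libraries 1 to 3 (log2 change 3.72, SE 0.26, limma adjusted p = 0.00295). Nfkbiz, a nuclear regulator of NF-kB target genes, came next on the log2(FPKM + 1) scale, with 19.5, 19.6 and 12.7 FPKM in adenine libraries 1 to 3, against 4.36, 4.02 and 2.96 FPKM in standard libraries 1 to 3 (log2 change 1.92, SE 0.20, adjusted p = 0.00405). By ratio of means Dusp2 (7.55), Nr4a3 (6.90) and Cebpd (4.85) stood above Nfkbiz (4.56). Socs3 and Nfkbiz are inducible by cytokines as well as by growth factors. Without adenine 2 the count of higher genes was 23 in place of 39. Of the genes named as called in the lists from here to the AP-1 targets, each was called in the same direction after median-of-ratios scaling, except Mxd3. Some genes of these lists passed the filter through the adenine libraries alone, their standard means being under 0.5 FPKM. Among them were Nr4a3, Fosl1, Batf, Batf3, Creb5, Dusp2, Mxd3 and Timp1, so the counts of higher calls rest partly on that choice. With no filter Dusp2 (limma adjusted p = 0.042), Mxd3 (0.0468) and Timp1 (0.00822) were still called higher.

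The 2 that fell were Sgk1 and Id2. Sgk1, a kinase that raises tubular sodium transport and responds to mineralocorticoids, had 58.7, 38.9 and 43.1 FPKM in adenine libraries 1 to 3, against 92.1, 124 and 116.5 FPKM in standard libraries 1 to 3 (log2 change -1.23, SE 0.18, limma adjusted p = 0.0071). Id2, an inhibitor of basic helix-loop-helix factors, had 153.6, 171.3 and 174.2 FPKM in adenine libraries 1 to 3, against 249.6, 242.8 and 314.4 FPKM in standard libraries 1 to 3 (log2 change -0.68, SE 0.13, adjusted p = 0.0126). Dusp1, a MAP kinase phosphatase singled out after its values were seen because it is often induced with Fos, was not called. It had 32.0, 38.1 and 34.7 FPKM in adenine libraries 1 to 3, against 47.8, 38.0 and 36.2 FPKM in standard libraries 1 to 3 (log2 change -0.21, adjusted p = 0.235), and after median-of-ratios scaling it was called lower (log2 change -0.50, adjusted p = 0.0371).

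**Figure D4:**
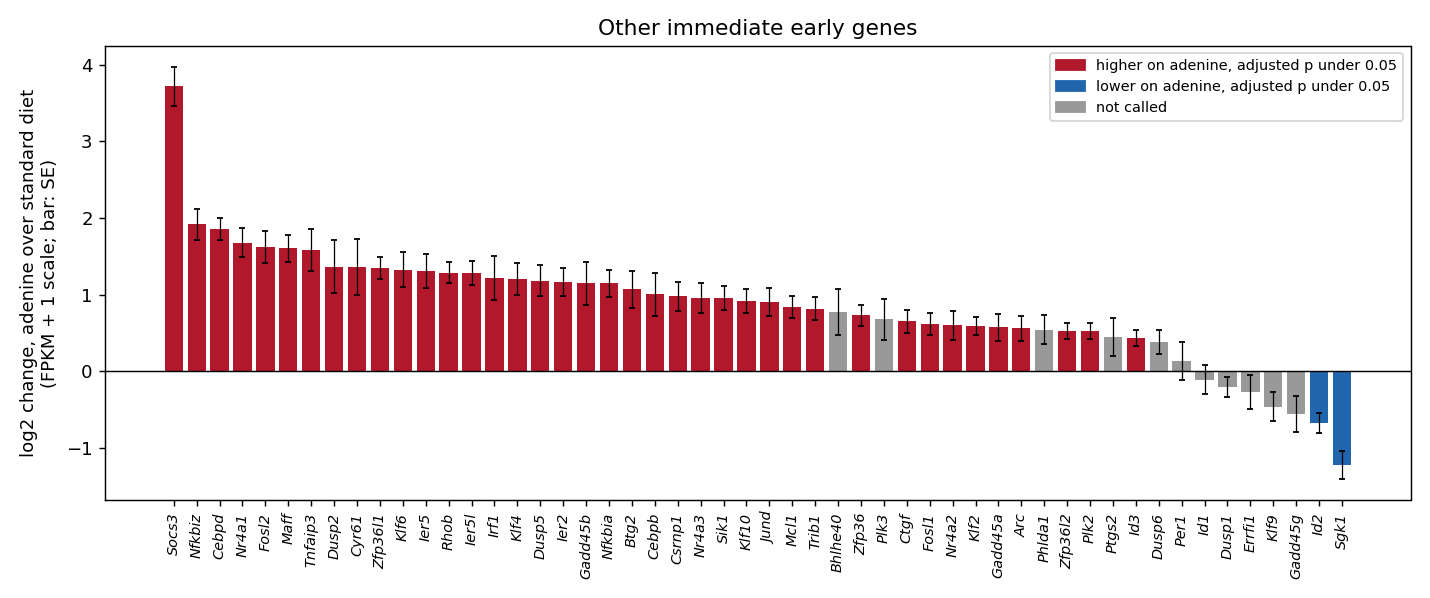
Log2 change, adenine-enriched over standard diet on the FPKM + 1 scale, with SE, for the 52 other immediate early genes tested, sorted by value; red marks genes called higher on adenine, blue lower and grey not called. Socs3 stands at 3.72, and Id2 and Sgk1 are the 2 blue bars, at -0.68 and -1.23; after median-of-ratios scaling 30 were called higher and 5 lower.

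Among 22 AP-1 and bZIP partner genes, which share Fosl1, Fosl2, Jund and Maff with the list above, 12 were called higher and 0 lower (median log2 change 0.52), and 10 and 1 after median-of-ratios scaling. Here, as in each list below with 0 lower calls up to the AP-1 target genes, 0 genes were lower at an unadjusted p under 0.05 in limma. Fosl2, a Fos-family subunit, had 28.0, 26.5 and 16.7 FPKM in adenine libraries 1 to 3, against 6.91, 7.78 and 5.89 FPKM in standard libraries 1 to 3 (log2 change 1.63, SE 0.21, limma adjusted p = 0.00538). Maff, a small Maf protein, had 7.63, 8.88 and 5.65 FPKM in adenine libraries 1 to 3, against 1.63, 1.59 and 1.98 FPKM in standard libraries 1 to 3 (log2 change 1.60, SE 0.18, adjusted p = 0.00419). In both genes every adenine library lay above every standard library. Without adenine 2 the count of higher genes was 5.

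Genes of the upstream signalling had a smaller median. Of 24 kinases, Ras genes and serum response factors, 11 were called higher and 0 lower. Their median log2 change was 0.29 beside 0.25 for all tested genes. After median-of-ratios scaling 4 (16.7%) were higher and 1 lower, beside 16.8% and 15.2% of all tested genes. Mkl1, the actin-regulated partner of serum response factor, averaged 17.5 ± 1.36 FPKM on adenine and 7.24 ± 2.25 FPKM on standard diet (SD, n = 3 each; log2 change 1.20, SE 0.20, limma adjusted p = 0.00815). Rps6ka1, a kinase that ERK activates, averaged 17.2 ± 5.43 FPKM on adenine and 7.21 ± 1.26 FPKM on standard diet (SD, n = 3 each; log2 change 1.11, adjusted p = 0.0165). The Rps6ka1 call was lost without adenine 2 (adjusted p = 0.0597), standard 1 (0.0537) or standard 3 (0.057). Leaving out any library but adenine 3 left 3 to 6 of the 24 called higher.

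Of 16 negative regulators of the early response, which share 7 genes with the first list, 10 were called higher and 0 lower (median log2 change 0.61), and 6 and 1 after median-of-ratios scaling. Zfp36l1, which speeds the decay of AU-rich mRNAs, had 125.5, 127.4 and 91.5 FPKM in adenine libraries 1 to 3, against 42.0, 44.6 and 45.9 FPKM in standard libraries 1 to 3 (log2 change 1.34, SE 0.14, limma adjusted p = 0.00405). Dusp2, a nuclear MAP kinase phosphatase of immune cells, had 4.96, 1.34 and 2.14 FPKM in adenine libraries 1 to 3, against 0.216, 0.507 and 0.394 FPKM in standard libraries 1 to 3 (log2 change 1.37, SE 0.34, adjusted p = 0.0247). Adenine 1 was far above the other adenine libraries for Dusp2, and its call was lost without standard 1 (adjusted p = 0.0758), standard 2 (0.0618) or standard 3 (0.0704).

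Of 12 genes of the Myc network, 7 were called higher and 0 lower (median log2 change 0.60), and 3 and 1 after median-of-ratios scaling. Mycl, a Myc paralog, averaged 3.98 ± 0.727 FPKM on adenine and 1.20 ± 0.431 FPKM on standard diet (SD, n = 3 each; log2 change 1.19, SE 0.19, limma adjusted p = 0.00824). Mxd3, which competes with Myc for Max, averaged 1.18 ± 0.557 FPKM on adenine and 0.311 ± 0.0251 FPKM on standard diet (log2 change 0.70, adjusted p = 0.0398), and it was not called after median-of-ratios scaling (adjusted p = 0.0521) and without any 1 library but adenine 3. Leaving out any library but adenine 3 left 2 to 4 of the 12 called higher.

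Of 20 Myc target genes, 11 (55%) were called higher and 3 lower (median log2 change 0.41), beside 29.7% and 6.84% of all tested genes. After median-of-ratios scaling 3 (15%) were higher and 4 lower, beside 16.8% and 15.2%. The share called higher was then close to that of all tested genes. Cad, the first enzyme of pyrimidine synthesis, averaged 9.37 ± 1.62 FPKM on adenine and 3.84 ± 0.916 FPKM on standard diet (SD, n = 3 each; log2 change 1.10, SE 0.18, limma adjusted p = 0.00867). Cdk4, a cell cycle kinase, averaged 70.0 ± 17.9 FPKM on adenine and 34.3 ± 3.30 FPKM on standard diet (log2 change 0.98, adjusted p = 0.0135; 0.0531 without adenine 2). Hspd1, a mitochondrial chaperonin, averaged 205 ± 47.2 FPKM on adenine and 370.1 ± 64.8 FPKM on standard diet (log2 change -0.86, adjusted p = 0.0229), and Nme1, a nucleoside diphosphate kinase, 35.3 ± 3.59 FPKM on adenine and 50.1 ± 8.03 FPKM on standard diet (log2 change -0.49, adjusted p = 0.0332). Both calls, though not the direction, were lost without adenine 2, standard 1, standard 2 or standard 3, Nme1 also without adenine 1. In these fits the log2 change was -0.72 to -0.94 for Hspd1 and -0.36 to -0.56 for Nme1. Leaving out any library but adenine 3 left 3 to 7 of the 20 higher.

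Of 16 AP-1 target genes, 14 were tested, and 10 were called higher and 0 lower on both scales, with a median log2 change of 1.84, or 1.62 after median-of-ratios scaling. Timp1, an inhibitor of matrix metalloproteinases, had 52.7, 64.0 and 30.9 FPKM in adenine libraries 1 to 3, against 0.590, 0.255 and 0.515 FPKM in standard libraries 1 to 3 (log2 change 5.06, SE 0.27, limma adjusted p = 0.00152). Spp1, the secreted phosphoprotein osteopontin, averaged 6731 ± 2031 FPKM on adenine and 452.7 ± 94.9 FPKM on standard diet (SD, n = 3 each; log2 change 3.87, SE 0.31, adjusted p = 0.00309). Each leave-one-out fit called 10 or 11 of these genes higher. Many of them are also expressed by fibroblasts or macrophages, whose markers rose too; the part of these cells in their change was not tested.

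Markers of some other cells were also higher on adenine. Of 6 macrophage markers listed, 5 were found by symbol, and all 5 were called higher. Summed over these 5, the level was 537.8, 362.3 and 267.1 FPKM in adenine libraries 1 to 3, against 69.2, 66.7 and 62.3 FPKM in standard libraries 1 to 3. The 5 injured tubule markers, all called higher, summed to 706.9, 787.1 and 333.7 FPKM on adenine and 14.5, 12.5 and 10.2 FPKM on standard diet, and the 4 fibroblast markers, all called higher, to 935.4, 799.7 and 487.3 FPKM on adenine and 92.1, 78.2 and 69.1 FPKM on standard diet. Each of these sums had its lowest adenine value in adenine 3, as had 9 of the 10 early genes. That order was found in 82.3% of all genes called higher, and in the T cell, B cell and neutrophil sums below. It is thus not particular to these markers. The part of these cells in the early gene values was not tested.

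T cell markers were called higher in 4 of 5 genes and summed to 52.1, 15.5 and 11.8 FPKM on adenine and 3.47, 2.91 and 4.21 FPKM on standard diet. That count was 2 after median-of-ratios scaling, 0 without adenine 2, standard 1 or standard 2, and 1 without standard 3. B cell markers were called in 0 of 4 (0 at an unadjusted p under 0.05 in limma), at 52.1, 3.83 and 3.57 FPKM on adenine and 4.52, 2.02 and 0.757 FPKM on standard diet. Of 5 neutrophil markers 2 were tested and 0 called (2 higher at an unadjusted p under 0.05, and 2 called higher without adenine 3 or standard 3), at 25.6, 33.3 and 8.95 FPKM on adenine and 2.63, 2.30 and 11.7 FPKM on standard diet. Endothelial markers were called in 0 of 4 (1 higher and 1 lower at an unadjusted p under 0.05; 2 called lower after median-of-ratios scaling, and 1 without adenine 3 or standard 3), at 121.5 to 136.6 FPKM on adenine and 116.7 to 149 FPKM on standard diet. Podocyte markers were called higher in 4 of 4, at 126.3 to 149.4 FPKM on adenine and 84.2 to 94.3 FPKM on standard diet. That count was 2 after median-of-ratios scaling, and 3 with the replicate block or with any 1 library left out. Kidney tubule markers were abundant in all 6 libraries. The 6 proximal tubule markers summed to 738.2, 1047 and 1425 FPKM on adenine and 1804, 2397 and 2410 FPKM on standard diet, with 5 of 6 called lower on both scales. Without adenine 1 the count was 3, and without adenine 2 or any 1 standard library it was 2. Thick ascending limb markers summed to 3395 to 4369 FPKM on adenine and 3601 to 3932 FPKM on standard diet, with 1 of 4 called higher and 2 lower, against 0 and 2 after median-of-ratios scaling. The 2 lower calls were lost without adenine 2 or any 1 standard library, and the higher call without adenine 2, standard 2 or standard 3. The 4 collecting duct markers, 0 called (1 higher at an unadjusted p under 0.05; 1 called lower after median-of-ratios scaling and 2 without standard 3), summed to 206.8 to 219.7 FPKM on adenine and 160.6 to 296.6 FPKM on standard diet. Of 4 adrenal markers 1 was tested and 0 called, and the 4 summed to at most 1.89 FPKM on adenine and 1.38 FPKM on standard diet. Of 4 adipocyte markers 3 were tested and 0 called (0 at an unadjusted p under 0.05 in limma). The 4 summed to 83.1 to 159.8 FPKM on adenine and 115 to 186 FPKM on standard diet. In no list was a marker at 0 in all 6 libraries.

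Heat shock genes, which like the early genes respond to tissue handling, were called in 0 of 11 by limma (median log2 change -0.27), and 0 had an unadjusted p under 0.05. After median-of-ratios scaling 0 were called and the median was -0.57. With the replicate block 1 was called, Hsph1, a chaperone (log2 change -0.70, adjusted p = 0.0358). Dnaja1, a co-chaperone and the gene of the list with the smallest p, averaged 111.2 ± 30.3 FPKM on adenine and 190.9 ± 117.2 FPKM on standard diet (SD, n = 3 each; log2 change -0.65, adjusted p = 0.245). Standard 3 stood apart: it was the highest of the 6 libraries for 11 of the 11, compared with 11.4% of all tested genes. Their summed level was 1447, 1884 and 2362 FPKM in adenine libraries 1 to 3, against 1637, 1796 and 4064 FPKM in standard libraries 1 to 3. Jun, Atf3 and Ier3 were the 3 of the 10 early genes that were highest in standard 3 among the standard libraries, a place that standard 3 held in 26.5% of tested genes. The other early genes peaked in standard 1 (3 genes) or standard 2 (4 genes).

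Without standard 3 the log2 change was 1.53 for Jun (limma adjusted p = 0.0219), 2.27 for Atf3 (0.019), 1.01 for Ier3 (0.0224), 1.58 for Fos (0.0435), 2.19 for Junb (0.0219), 2.31 for Egr2 (0.0272) and 1.5 for Myc (0.0239), all still called. Egr1 at 1.64 (0.0531) and Egr3 at 0.89 (0.0862) were then not called. Hspb1, a small heat shock protein, was then called higher (log2 change 1.23, adjusted p = 0.0219), the 1 call among the 11. How far handling set the levels in either group was not tested.

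**Figure D5:**
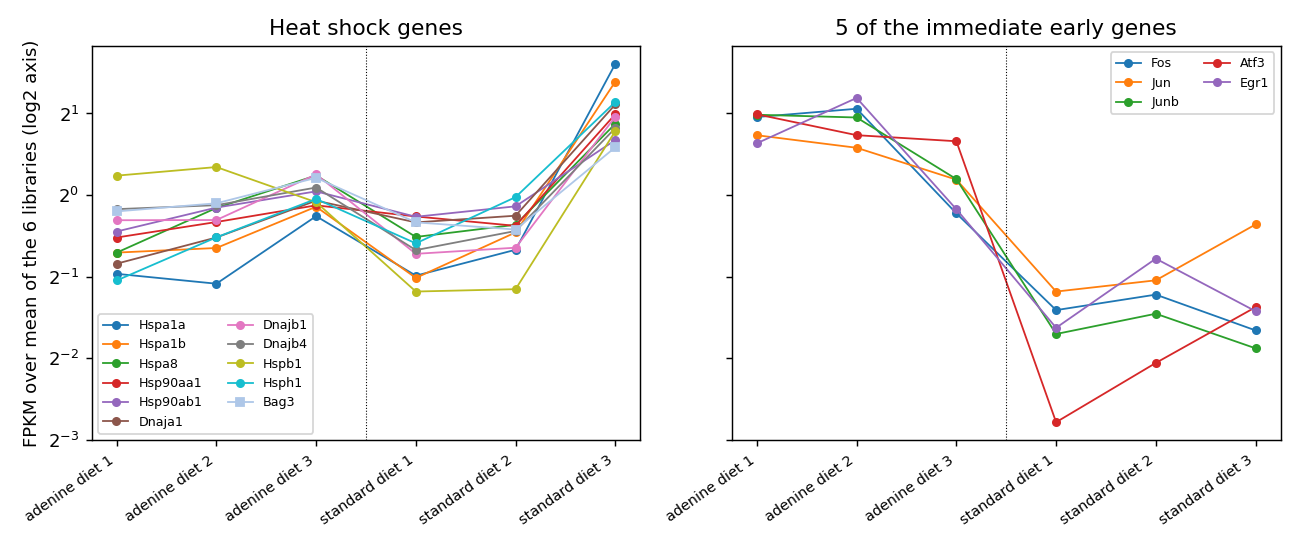
FPKM over the mean of the 6 libraries, on a log2 axis, for the 11 heat shock genes (left) and for Fos, Jun, Junb, Atf3 and Egr1 (right), with the 3 adenine libraries before the 3 standard libraries in each panel. All 11 heat shock genes are highest in standard 3, whereas the 5 early genes are higher in each adenine library than in each standard library.

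For each tested gene, the closest profiles over the 6 libraries were found among 10483 or 10484 other genes averaging 5 FPKM or more, as the mean absolute difference of log2(FPKM + 1) values centred on each gene. All genes share the same 6 libraries in 2 diets, so any gene with a like rise scores as close. The closest were Chrnb1 (0.086) and Fosl2 (0.106) for Fos, Hspb8 (0.101) and Cadps2 (0.112) for Jun, and Penk (0.0703) and Tuba1a (0.0849) for Junb. For Atf3 they were Cp (0.124) and Mgl2 (0.161), and for Egr1 Fos itself (0.188) and Tubb2b (0.202). For Egr2 they were Slc7a2 (0.0474) and Gpr153 (0.0974), and for Egr3 Pydc4 (0.0666) and Ifih1 (0.0706). For Myc they were Lrp1 (0.0576) and Pdgfb (0.0692), and for Ier3 Myo7a (0.0615) and Znrf1 (0.0665). Of the early genes, only Fos, Jun, Junb, Egr1, Myc and Ier3 averaged 5 FPKM or more, so only these could be ranked. They were mostly not the closest profiles of the other early genes. Their ranks ran from 1 (Fos for Egr1) and 10 (Junb for Egr2) to 9271 (Junb for Egr3). For Fos they were Egr1 69, Myc 194, Junb 429, Jun 564 and Ier3 1236. For Jun they were Ier3 226, Myc 318, Fos 812, Egr1 1407 and Junb 2986. The measure also grows with a difference in the size of the change, which log2(FPKM + 1) understates in low genes such as Egr3.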

How the data were processed

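Per the labels' protocols, total RNA of whole kidneys was made into TruSeq libraries with random hexamer priming and read as 100 bp pairs on a HiSeq2500. The authors deposited FPKM values per gene; the tools in the submitters' processing notes are bcl2fastq 2.0, TopHat (no version given) and Cufflinks 2.1.1, and the builds mm10 and GRCm38. The gene annotation and the strand setting are not stated in any source used here. The other deposited table compares ages; its 6 value columns match none of the listed samples and were left out.

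Each of the 6 libraries was taken from its column by diet and number. FPKM were fitted as log2(FPKM + 1) by limma (version 3.58.1, R 4.3.3) with diet as the term, an intensity trend and two-sided tests, under the filter and adjustment given above; log2 changes on this scale understate those of low genes. FPKM keep no counts. Of values at 1 to 3 steps, 65.4% to 74.1% were within 0.15 of whole fragments, so whole reads were not recovered and no count test was run. From these steps 3 fragments on a transcript of 2 kb are about 0.0638 to 0.0867 FPKM, and such limits cover counting error only. Simulated data with 15431 genes were made for this comparison, with 100 genes changed by 1 on the log2 scale and 100 by 2. The fit called 46 and 88 of them, with 4 false calls among the other 15231. Far more genes, 5637, were called in the data. The adjustment depends on how many genes change, so these simulated rates do not carry over to the data.

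The 10 genes, the gene lists and the markers were chosen with earlier results of these data known. Named from each pathway list were up to 2 largest rises and 2 largest falls among called genes, or the smallest p where none was called. The motif TGACNTCA was added after the promoters were seen. Same-numbered libraries of the 2 diets deviated together (correlations 0.257, 0.143 and 0.181 for numbers 1 to 3, against -0.187 to 0.0376 for other pairs). The deviations are taken from the mean of each diet, so these correlations are tied to each other. The labels state no pairing, and whether the libraries are paired was not tested. A fit with the replicate block was therefore run beside the one without. No 2 libraries were identical. Alternatives were another pseudocount, other filters, 2 scalings, other variance models, the replicate block and each library left out.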

Additional observations from a re-analysis of the deposited data

How the results depend on the processing

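Of the 10 early genes, 9 were called in the fit reported. The count was 9 with a pseudocount of 0.1, no filter, median-of-ratios scaling, no intensity trend, a robust prior or the replicate block, 8 with quantile normalization, 8 with the block and median-of-ratios scaling together, and 6 with a filter at 5 FPKM, which fewer of the genes pass. Leaving out each library in turn gave 7 to 9. Over these alternatives all 131 log2 changes of the 9 tested genes were positive and 123 were called; the 8 others were 6 of Egr3 and 2 of Egr1. With the replicate block no call of the 9 was lost, and with the block and median-of-ratios scaling Egr3 was (adjusted p = 0.0517). Among all genes 5637 were called in the fit reported and 5957 with the replicate block. The number was 5790 with a pseudocount of 0.1, 5457 with no intensity trend and 5706 with a robust prior. It was 4377 with quantile normalization, 4944 on the median-of-ratios scale and 5266 with the block on that scale. The filter at 5 FPKM gave 4120 and no filter 4986, from other numbers of tested genes. With a library left out it was 2119 (without adenine 2) to 7046 (without adenine 3). Without adenine 1 it was 3609, and without standard 1, 2 or 3 it was 2915, 2929 and 2789. Many genes were thus called in every fit, so a kept call by itself sets none of the 9 apart. Fosb was at about 5 to 43 fragments a library; the part of depth and of the log scale in its missed call was not tested.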
